A study of Mus musculus with 4 samples.

Results

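Explanted mouse dorsal root ganglia, which hold the cell bodies of sensory neurons outside the spinal cord, were compared with unstimulated explants 1 day and 9 days after electrical stimulation, and genes were sought whose difference was not the same on both days. Some of the genes that stood higher in the stimulated (ES) library at 11 days in vitro (DIV) stood lower than control at 19 DIV, and the reverse was found for others. The measure used here is the difference of differences: ES minus control in log2 CPM (read counts scaled to library size) at 19 DIV, less ES minus control at 11 DIV. A positive value means that ES stood higher against its control at 19 DIV than at 11 DIV, and a value of 1 is a 2-fold change of the ratio. Members had to average 1000 or more reads over the 4 libraries, which left 1357 of the 23282 gene rows. All 1357 had reads in each library, so no fold below rests on a count of 0.

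The ganglia came from C57BL/6 embryos at embryonic day 13 and grew as explants on Matrigel, in growth medium until 8 DIV and in myelination medium afterwards. ES cultures received 20 Hz at 50 mV/mm for 1 h at 10 DIV, and control cultures received no stimulation. Each library held RNA pooled from 3 explants, and there was 1 library for each combination of treatment and harvest day. The interaction of treatment and day used the last degree of freedom, so no value here has a replicate check or a p-value. Effects of stimulation and of the particular explants or library preparation cannot be told apart. The comparisons at 11 and 19 DIV shared no library.

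Explants of embryonic ganglia hold sensory neurons that extend axons, Schwann cells that ensheath and in myelination medium myelinate them, satellite glia around the cell bodies, and fibroblasts. Peptidergic nociceptors, neurons that sense noxious stimuli, make substance P from Tac1 and calcitonin gene-related peptide from Calca. Schwann cells build compact myelin from proteins that include Pmp22 and Mbp. Cells under metal or oxidative stress are known to make more metallothionein, ferritin and peroxiredoxin. Fibroblasts and Schwann cells deposit collagens, and insulin-like growth factor binding proteins are secreted regulators of growth factor access.

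The libraries held 5782834 to 7830950 reads, and the members took 59.6% to 63.6% of them. The ribosomal RNA precursor Rn45s took 5.18% of reads in control at 11 DIV and 2.65% to 3.08% in the other 3 libraries. Reads were far more scattered than independent counts. Over members with a mean of 1000 to 3000 reads, the squared difference of differences was 245.8 times what counting error alone gives, a factor in which real changes and clumped reads are both contained. Intervals called widened below are 95% intervals. Those of the difference of differences are enlarged by the square root of that factor. Those of ratios within a day are set on counts divided by it. Neither kind stands for replicates. The factor was set on members with 1000 to 3000 mean reads and applied to all, so the intervals narrow with counting error as reads increase. The median absolute difference of differences was 0.89 for the 793 members with 1000 to 2000 mean reads, 0.63 for the 423 with 2000 to 5000, and 0.60 for the 141 with more, against 2.17 for the 6759 genes with 100 to 1000. Values of members near the lower limit were thus less certain than those of abundant ones. From 2000 reads upwards the scatter hardly narrowed (0.63 and 0.60), so widened intervals of abundant genes may be too narrow.

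Over all members the median difference of differences was 0.13, with quartiles at -0.65 and 0.85. It was at least 2-fold higher at 19 DIV for 275 members (20.3%) and at least 2-fold lower for 226 (16.7%). Opposite signs on the 2 days were found for 715 members (52.7%). A change of sides was therefore asked to pass 1.5-fold on each day. By that rule 79 members (5.82%) were lower in ES at 11 DIV and higher at 19 DIV, and 77 (5.67%) were higher at 11 DIV and lower at 19 DIV. The widened interval excluded 0 for 27 of the 79 and 26 of the 77. Over all members it lay above 0 for 48 (3.54%) and below 0 for 40 (2.95%), so 35 members with such an interval did not change sides. The width was set from these same values, so a small share of members excludes 0 by design. Exclusion of 0 therefore ranks genes and is no support for a change. Widened intervals of ratios within a day use the same factor and are no support for a difference on that day.

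At 11 DIV, 340 members (25.1%) were at least 1.5-fold lower in ES and 276 (20.3%) at least 1.5-fold higher. At 19 DIV, 257 (18.9%) were lower and 299 (22.0%) higher. Of the members lower at 11 DIV, 23.2% were higher at 19 DIV and 14.7% were lower again. Of those higher at 11 DIV, 27.9% were lower at 19 DIV and 21.4% were higher again. Over all members 22.0% were higher at 19 DIV, so the shares of 23.2% and 21.4% were near that of all members. The shares that were lower at 19 DIV, 14.7% and 27.9%, lay below and above the 18.9% of all members. Across the 1357 members the ES differences of the 2 days had a Pearson r of -0.135 and a Spearman rho of -0.089, a weak relation described without a test because genes are not independent replicates.

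**Figure D1:**
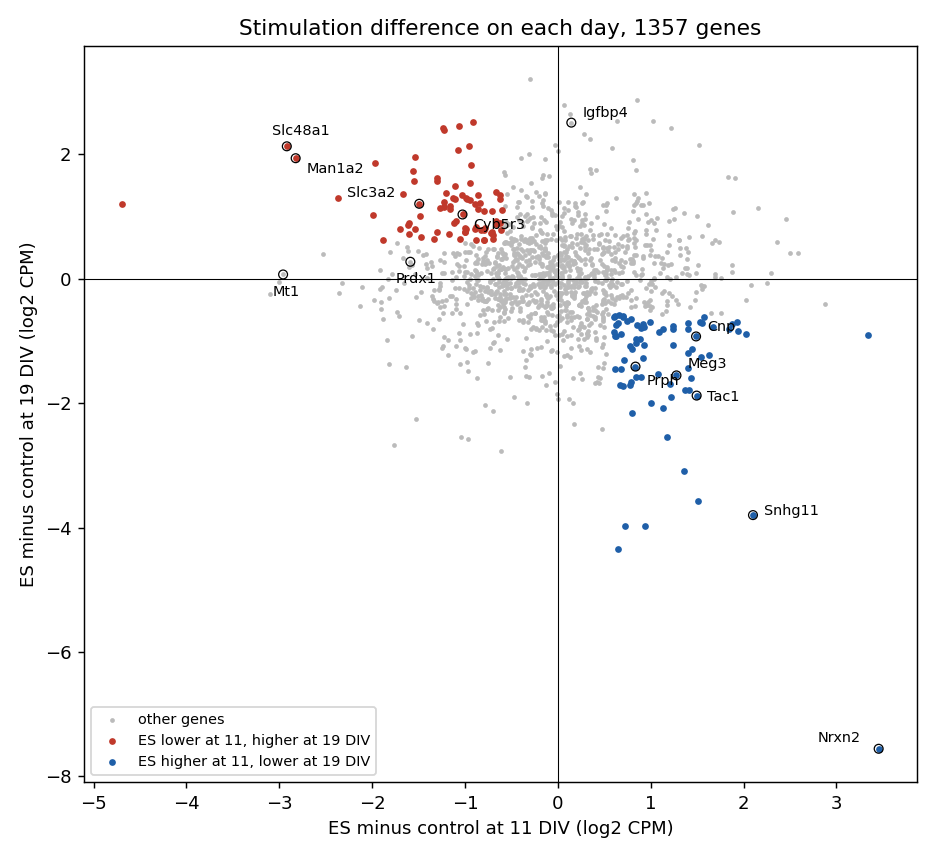
Each point is a member, with ES minus control in log2 CPM at 11 DIV on the horizontal axis and at 19 DIV on the vertical axis. The 79 red members sit upper left and the 77 blue members lower right, while Mt1 and Prdx1 lie far from 0 at 11 DIV and near 0 at 19 DIV.

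Of 30 general neuronal markers, 16 were members. At least 1.5-fold higher in ES at 11 DIV were 10 of them (20.3% of all members) and none was lower, while at 19 DIV 12 were lower (18.9%) and none was higher. Both held for 7, which changed sides (5.67%). The other 9 did not pass on both days, and all 16 had a negative difference of differences. Their median ES minus control was 0.73 at 11 DIV and -1.34 at 19 DIV, and the median difference of differences was -2.06, against 0.13 over all members. The difference of differences was at least 2-fold lower for 12 of the 16 (16.7% of all members). In these pooled explants, fewer neurons and less RNA per neuron cannot be told apart. The summed level of all 30 markers was 7773 CPM in control against 11830.0 in ES at 11 DIV, and 9954 against 4754 at 19 DIV.

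Tac1, the precursor of substance P (chromosome 6, 7554879 to 7565834 in GRCm38), had the widened interval furthest below 0 among the genes that changed sides. It had 588 CPM in control against 1658 in ES at 11 DIV, and 1131 against 308 at 19 DIV. The ES library held the highest of the 4 levels at 11 DIV and the lowest at 19 DIV. Tac1 was at 2.82 times control at 11 DIV (widened interval 1.49 to 5.56) and 0.272 times at 19 DIV (0.118 to 0.562), and its difference of differences was -3.37 (widened interval -4.72 to -2.02). Calca, the other main peptide precursor, was below control on both days, at -0.87 and -1.59 log2 units, and its difference of differences was -0.72 (widened interval -2.25 to 0.81). Scg3, a granin of secretory granules, was at 0.80 and -2.16, while Vgf, the precursor of several neuronal peptides, was lower on both days at -0.61 and -2.77.

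Prph, the intermediate filament peripherin (chromosome 15, 99055174 to 99058978), had 667 CPM in control against 1192 in ES at 11 DIV, and 906 against 340.2 at 19 DIV. The 2 control libraries lay between the 2 ES libraries. Its difference of differences was -2.25 (widened interval -3.60 to -0.90). Mapt, the microtubule-binding protein tau, had 279 CPM in control against 739 in ES at 11 DIV, and 552 against 204 at 19 DIV, again with the ES libraries outermost, and a value of -2.84 (widened interval -4.68 to -1.0). Rtn1, a reticulon of neuronal endoplasmic reticulum, was level in the controls with 303 and 320.3 CPM. In ES it had 783 CPM at 11 DIV and 93.0 at 19 DIV, which gave -3.15 (widened interval -5.40 to -0.90).

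Other neuronal markers differed in size and in their side at 11 DIV. Basp1, a membrane protein of growth cones, was at 0.62 and -0.93 log2 units on the 2 days, and Gap43, a growth cone protein, at 0.93 and -1.06. Gng3, a neuronal G protein subunit, was at 0.94 and -3.97 and Eno2, neuronal enolase, at 0.92 and -1.27. Tubb3, the neuronal beta-tubulin, and Stmn2, a microtubule regulator of axons, were under 1.5-fold at 11 DIV (0.42 and 0.45) and did not count as changing sides. At 19 DIV they were at -1.66 and -1.59, and their differences of differences were -2.08 (widened interval -3.75 to -0.41) and -2.04 (widened interval -3.54 to -0.54). Sncg, a synuclein of sensory neurons, was near control at 19 DIV, with 2.25 and -0.07. The neurofilament genes Nefl and Nefm, whose products give axons their calibre, were at 0.48 and -2.42 and at -0.36 and -1.42. Uchl1, an abundant deubiquitinase of neurons, had a difference of differences of -0.30 and Dpysl3, a growth cone phosphoprotein, -0.50. Map1b, a microtubule-associated protein, was at -0.18 and -1.10, and the RNA-binding protein Elavl4 at 1.22 and 0.24. In the wider list of axonal transport and microtubule genes, 23 members had medians of -0.12 at 11 DIV and -0.53 at 19 DIV, with 3 higher (20.3% of all members), 4 lower (16.7%) and 16 under 2-fold.

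Further genes changed sides in this direction. Gnao1, Sult4a1, Snhg11, Ngfrap1 and Tppp3 stood in none of the lists and form no group tested here. Gnao1, the G protein alpha subunit Go, had 181 CPM in control against 492 in ES at 11 DIV, and 588 against 195 at 19 DIV, and its difference of differences was -3.03 (widened interval -5.10 to -0.96). Sult4a1, a sulfotransferase-like protein of neurons, had 671 reads in control against 1964 in ES at 11 DIV, and 1765 against 170 at 19 DIV, and Snhg11, a small nucleolar RNA host gene, 629 reads in control against 2767 in ES at 11 DIV, and 1372 against 112 at 19 DIV. Their values were -5.08 (widened interval -9.14 to -1.03) and -5.90 (widened interval -10.64 to -1.16). In both genes the ES library at 19 DIV stood far below the other 3. Ngfrap1, which encodes a binding partner of the neurotrophin receptor p75, was at 3.09 times control at 11 DIV (widened interval 1.28 to 7.55) and 0.429 times at 19 DIV (0.179 to 1.08). Tppp3, a tubulin polymerization promoting protein, had -3.20 (widened interval -5.87 to -0.53). Nrxn2, the presynaptic adhesion molecule neurexin 2, was listed with the neuronal adhesion genes and had 248 reads in control against 2800 in ES at 11 DIV, and 2336 against 12 at 19 DIV. Its point value of -11.01 was the lowest of all members, but with 12 reads in 1 library its widened interval ran from -23.09 to 1.07. The 8 adhesion members had medians of 0.76 at 11 DIV and -0.06 at 19 DIV. At 11 DIV 5 were at least 1.5-fold higher in ES (20.3% of all members) and 1 lower (25.1%). At 19 DIV 1 was higher (22.0%), 6 were under 1.5-fold and only Nrxn2 was lower (18.9%). Meg3, a long noncoding RNA of the imprinted Dlk1 region, had 295 CPM in control against 715 in ES at 11 DIV, and 692 against 236 at 19 DIV and a value of -2.83 (widened interval -4.58 to -1.08).

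**Figure D2:**
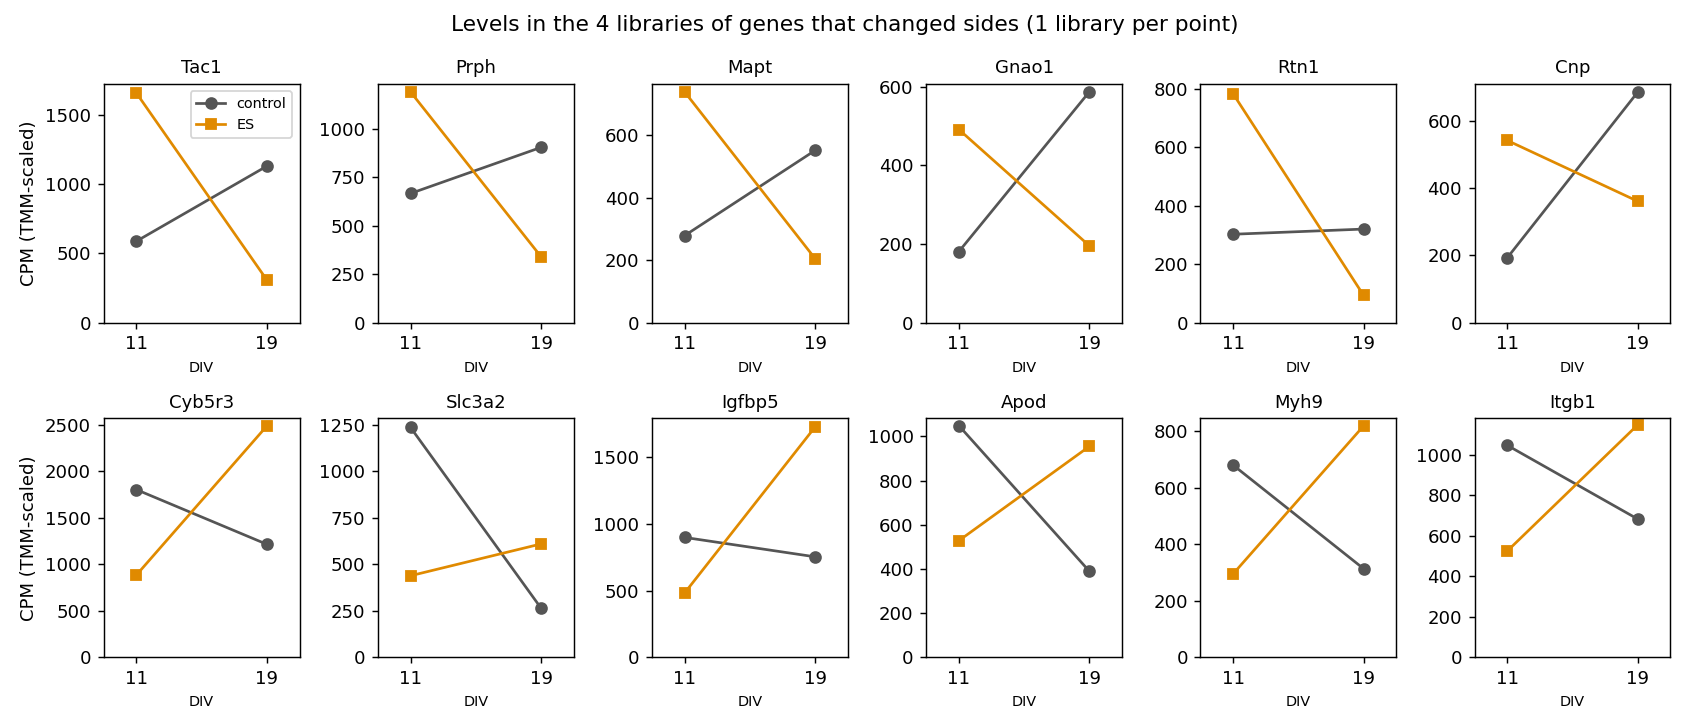
Each panel shows 1 gene that changed sides, with CPM on the vertical axis, days in vitro on the horizontal axis, grey circles for control and orange squares for ES, and 1 library per point. In the upper row (Tac1, Prph, Mapt, Gnao1, Rtn1, Cnp) ES lies above control at 11 DIV and below it at 19 DIV, and in the lower row (Cyb5r3, Slc3a2, Igfbp5, Apod, Myh9, Itgb1) the order is reversed.

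Of the 13 members of the myelin list, 10 were at least 1.5-fold higher in ES at 11 DIV (20.3% of all members) and none was lower. At 19 DIV 4 were higher (22.0%), 2 lower (18.9%) and 7 under 1.5-fold. The 13 members of the myelin list had a median of 1.24 at 11 DIV and -0.14 at 19 DIV and a median difference of differences of -0.93, with 0 higher (20.3% of all members), 6 lower (16.7%) and 7 under 2-fold. Changing sides were 2 of the 13 (5.67% of all members). Mbp, myelin basic protein, had 832 CPM in control against 1154 in ES at 11 DIV, and 1532 against 1033 at 19 DIV. The ES library was above control at 11 DIV and below it at 19 DIV, by under 1.5-fold on each day. Its difference of differences was -1.04 (widened interval -2.10 to 0.02). Pmp22, a membrane protein of compact myelin, had 317 CPM in control against 494 in ES at 11 DIV, and 1201 against 979 at 19 DIV, with -0.93 (widened interval -2.43 to 0.56). Both libraries at 19 DIV were above both at 11 DIV for Pmp22, and both widened intervals included 0.

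Cnp, a phosphodiesterase of non-compact myelin, and Cd9, a tetraspanin, were the 2 members of the myelin list that changed sides. Cnp had 193 CPM in control against 542 in ES at 11 DIV, and 686 against 361 at 19 DIV, and its difference of differences was -2.42 (widened interval -4.28 to -0.55). Cd9 had 154 CPM in control against 363 in ES at 11 DIV, and 605 against 288 at 19 DIV, with -2.31 (widened interval -4.41 to -0.20). For Cnp and Cd9 the control library at 19 DIV held the highest level of the 4. Other members of the list stayed above control on both days. Mag, a glycoprotein facing the axon, was at 1.88 and 1.08 log2 units, Prx, the scaffold periaxin, at 1.31 and 0.63, and Pmp2, a lipid-binding myelin protein, at 1.62 and 0.87. Egr2, the transcription factor that drives Schwann cell myelination, was below the limit for members, with 3 reads in control against 585 in ES at 11 DIV, and 393 against 1935 at 19 DIV. It was higher in ES on both days.

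The Schwann lineage list overlaps the myelin list, and its 14 members had medians of 0.75 at 11 DIV and -0.32 at 19 DIV and a median difference of differences of -1.06, with 0 higher (20.3% of all members), 7 lower (16.7%) and 7 under 2-fold. Sox10, a transcription factor of the lineage, and Ngfr, the neurotrophin receptor p75, had values of 0.19 (widened interval -1.12 to 1.51) and -0.06 (widened interval -1.55 to 1.42). Apoe, the lipid carrier apolipoprotein E, was at 2.24 times control at 11 DIV (widened interval 1.19 to 4.25) and 0.702 times at 19 DIV (0.441 to 1.16), with -1.67 (widened interval -2.75 to -0.60). Nab2, a corepressor that binds Egr2, changed sides at 1.24 and -0.76, with an interval that included 0 (-5.29 to 1.29). Id2, an inhibitor of helix-loop-helix factors, was at 0.99 and -0.44 and Jun, a transcription factor of immature and injured Schwann cells, at 1.0 and -0.51.

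Of the 13 lipid synthesis members, 7 were at least 1.5-fold higher in ES at 11 DIV (20.3% of all members) and 1 lower (25.1%), and at 19 DIV 4 were lower (18.9%) and none was higher. They had medians of 0.61 at 11 DIV and -0.27 at 19 DIV and a median difference of differences of -0.80, with 0 higher (20.3% of all members), 6 lower (16.7%) and 7 under 2-fold. Changing sides were 3 of them (5.67% of all members): the stearoyl-CoA desaturase Scd2, the fatty acid synthase Fasn and the citrate lyase Acly. Scd2 had 964 CPM in control against 1517 in ES at 11 DIV, and 1282 against 788 at 19 DIV, and its value was -1.36 (widened interval -2.41 to -0.30). Fasn was at 0.84 and -0.96 log2 units and Acly at 0.61 and -0.60. Cyp51, an enzyme of cholesterol synthesis, was below control on both days, at -0.71 and -0.51, and the desaturase Fads1 and the sterol enzyme Msmo1 were at -0.34 and -0.27 and at 0.0 and -0.05.

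The metallothioneins Mt1 and Mt2 stood far lower in ES at 11 DIV and close to control at 19 DIV. Of 18 antioxidant members, 13 were at least 1.5-fold lower in ES at 11 DIV (25.1% of all members) and 5 under 1.5-fold, and at 19 DIV 16 were under 1.5-fold and 2 lower (18.9%). The promoters of Mt1, Mt2 and Prdx1 are shown because these genes had the largest read numbers among those moving together here. The sequences are the 250 bases before the annotated start, from RefSeq (GRCm38.p6), written 5′ to 3′ on the gene's strand. Capitals mark the core of the metal response element (TGCACNC or TGCGCNC, either strand) in the metallothionein promoters and of the antioxidant response element (TGACNNNGC, either strand) in Prdx1.
Mt1, chr8:94178839-94179088, plus strand: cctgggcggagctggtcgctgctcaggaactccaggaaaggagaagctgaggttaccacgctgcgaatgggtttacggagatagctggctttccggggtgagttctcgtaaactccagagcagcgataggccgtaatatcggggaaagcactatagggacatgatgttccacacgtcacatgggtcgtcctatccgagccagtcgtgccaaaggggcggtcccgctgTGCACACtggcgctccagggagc
Mt2, chr8:94172368-94172617, plus strand: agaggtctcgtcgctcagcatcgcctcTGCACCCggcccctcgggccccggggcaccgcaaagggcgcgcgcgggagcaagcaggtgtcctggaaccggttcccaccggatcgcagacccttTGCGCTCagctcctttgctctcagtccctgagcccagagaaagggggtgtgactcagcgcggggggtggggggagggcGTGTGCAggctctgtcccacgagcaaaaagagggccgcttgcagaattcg
Prdx1, chr4:116685349-116685598, plus strand: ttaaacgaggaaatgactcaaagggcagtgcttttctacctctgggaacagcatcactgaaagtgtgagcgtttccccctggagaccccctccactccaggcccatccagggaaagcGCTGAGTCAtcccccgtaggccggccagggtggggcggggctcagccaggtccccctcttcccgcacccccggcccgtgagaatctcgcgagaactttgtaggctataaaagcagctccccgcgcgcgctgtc
The metal element was found once in the Mt1 window, 23 bases before the start, and at 223, 128 and 50 bases before the start of Mt2. Distances are to the RefSeq start at the end of each window, which for Mt1 and Mt2 differs from the GENCODE gene start printed below. Only the windows were searched, so elements outside them are not counted. The antioxidant element of Prdx1 began 133 bases before the start and overlapped 1 of 2 matches to the AP-1 motif TGANTCA. The Mt2 window also held 2 matches to the other motifs, not in capitals, 1 to AP-1 and the other to the antioxidant element. These short motifs are common. The metal element was present in 21.4% of all 32851 promoter windows, in 31.8% of the 1329 windows of 1030 matched members, in 26.7% of windows of genes lower at 11 and higher at 19 DIV, and in 37.8% of windows of genes with the opposite change. For the antioxidant element the shares were 10.2%, 14.2%, 15.6% and 15.9%, and for AP-1 they were 6.75%, 4.67%, 3.33% and 3.66%.

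The metallothioneins Mt1 and Mt2, which bind zinc and copper ions, had by far their highest level in the control library at 11 DIV. Mt1 (chromosome 8, 94179082 to 94180327) had 8456 CPM in control against 1087 in ES at 11 DIV, and 900.3 against 945 at 19 DIV, and Mt2 (chromosome 8, 94172664 to 94173568) had 9344 CPM in control against 1161 in ES at 11 DIV, and 684 against 657 at 19 DIV. Their differences of differences were 3.03 (widened interval 2.07 to 3.99) and 2.95 (widened interval 1.90 to 4.0). Prdx1, a peroxide-reducing enzyme, had 6401 CPM in control against 2128 in ES at 11 DIV, and 551 against 666 at 19 DIV, with 1.86 (widened interval 0.82 to 2.91). In all 3 genes both libraries at 19 DIV were below both at 11 DIV, and ES did not pass 1.5-fold at 19 DIV, so they did not change sides. The same control library at 11 DIV had the highest share of Rn45s reads, and its part in these values was not tested. The values at 19 DIV do not use that library.

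The ferritin heavy chain crossed control. Fth1, which holds iron in oxidized form, had 3148 CPM in control against 1512 in ES at 11 DIV, and 1174 against 1834 at 19 DIV. It was at 0.48 times control at 11 DIV (widened interval 0.31 to 0.718) and 1.56 times at 19 DIV (1.01 to 2.48), and its difference of differences was 1.70 (widened interval 0.86 to 2.54). The light chain Ftl1 was at -1.13 and 0.42 log2 units and missed 1.5-fold at 19 DIV. Slc48a1, which carries heme out of lysosomes and endosomes, had 2474 reads in control against 333 in ES at 11 DIV, and 324 against 1651 at 19 DIV, the control library being highest at 11 DIV and the ES library at 19 DIV, with 5.05 (widened interval 1.32 to 8.77). That interval lay furthest above 0 among the genes that changed sides. Hmox1, which degrades heme, had 4258 reads in control against 754 in ES at 11 DIV, and 146 against 224 at 19 DIV, and its value of 2.93 (widened interval -2.07 to 7.93) rested on few reads at 19 DIV. All 5 members of the metal and iron list were at least 2-fold higher (20.3% of all members), with a median of 2.93.

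The antioxidant difference of differences stood at 8 higher (20.3% of all members), 1 lower (16.7%) and 9 under 2-fold, with medians of -1.21 at 11 DIV and -0.03 at 19 DIV. None changed sides by the 1.5-fold rule (5.82% and 5.67% of all members in the 2 directions), and 1 had a widened interval above 0 (3.54% of all members). Prdx6 was at -1.22 and 0.27, the sulfiredoxin Srxn1 at -1.27 and -0.06 and the thioredoxin reductase Txnrd1 at -1.25 and 0.10 log2 units. Gstp1 and Gstp2, glutathione transferases whose counts were within 5% of each other in every library and may share reads, had differences of differences of 1.55 and 1.58. Sod2, the mitochondrial superoxide dismutase, was the member at least 2-fold lower, at 0.24 and -1.52. Sod1, its cytosolic counterpart, was below control on both days at -0.80 and -0.57, as was the glutathione transferase Gsta4 at -1.82 and -1.37. The transketolase Tkt (0.0 and -0.22), thioredoxin Txn1 (0.04 and 0.10), the glutathione peroxidase Gpx1 (0.29 and 0.58) and the transcription factor Nfe2l2 (0.16 and 0.23) were under 1.5-fold on each day.

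The integrated stress response and amino acid supply list had medians of -0.91 at 11 DIV and 0.01 at 19 DIV over 11 members, with 5 higher (20.3% of all members), 0 lower (16.7%) and 6 under 2-fold. Slc3a2, the heavy chain of amino acid exchangers (chromosome 19, 8706882 to 8723369), was the member that changed sides. It had 1236 CPM in control against 439 in ES at 11 DIV, and 264 against 610.1 at 19 DIV, so that control was highest at 11 DIV and ES was above control at 19 DIV. It was at 0.355 times control at 11 DIV (widened interval 0.167 to 0.765) and 2.31 times at 19 DIV (1.0 to 6.9), with 2.70 (widened interval 1.11 to 4.28). Its partner for cystine uptake, Slc7a11, was at -1.57 and 0.23, and Atf4, the transcription factor of the response, at -1.01 and 0.04. Eif4ebp1, a repressor of cap-dependent translation, had 1080 reads in control against 899 in ES at 11 DIV, and 229 against 2467 at 19 DIV, and Ddit4, an inhibitor of mTOR signalling, went the other way at 0.49 and -0.37. The p53 and growth arrest list had 5 members, with 3 higher (20.3% of all members), 1 lower (16.7%) and 1 under 2-fold. In it, Cdkn1a, a cell cycle inhibitor, was at -1.14 and 0.11, with 1.25 (widened interval -0.07 to 2.57). Cdkn1b, another such inhibitor, went the other way at 0.51 and -1.20. Zmat3 changed sides at -0.61 and 1.11, but was at -0.57 at 11 DIV with DESeq2 size factors, under 1.5-fold.

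The insulin-like growth factor binding proteins Igfbp5 and Igfbp7 stood lower in ES at 11 DIV and higher at 19 DIV. Igfbp5 (chromosome 1, 72857932 to 72874884) had 897 CPM in control against 483 in ES at 11 DIV, and 752 against 1725 at 19 DIV, and Igfbp7 had 656 CPM in control against 414 in ES at 11 DIV, and 539.7 against 1419.7 at 19 DIV. The ES library at 19 DIV was the highest of the 4 for both, and the ES library at 11 DIV the lowest. Igfbp5 was at 0.538 times control at 11 DIV (widened interval 0.251 to 1.19) and 2.29 times at 19 DIV (1.37 to 4.0), and the differences of differences were 2.09 (widened interval 0.83 to 3.35) and 2.06 (widened interval 0.64 to 3.48). Igfbp4 was near control at 11 DIV and differed at 19 DIV, with 0.15 and 2.51 log2 units and 2.37 (widened interval -0.06 to 4.79). The 5 members of the list, Igf1r and Igf2bp2 included, had a median of 2.06, and the receptor Igf1r, at 0.84 and 0.63, was higher on both days. With scaling by total counts Igfbp7 was at -0.53 log2 units at 11 DIV and no longer passed 1.5-fold there.

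Matrix and adhesion genes were mixed. The 19 fibroblast matrix members had medians of 0.22 at 11 DIV and 0.61 at 19 DIV, with 4 higher (20.3% of all members), 1 lower (16.7%) and 14 under 2-fold. Of the 19, 1 changed sides (5.82% of all members). The shares past 2-fold higher and changing sides were near those of all members. Col1a1 and Col1a2, the type I collagen chains, were above control on both days and had values of 0.13 (widened interval -0.66 to 0.92) and -0.28 (widened interval -0.88 to 0.33). Col5a2, a type V collagen chain, changed sides at -0.62 and 1.34 but was at -0.49 at 11 DIV with total counts, under 1.5-fold. Fn1, fibronectin, had 1398 reads in control against 1493 in ES at 11 DIV, and 447 against 3592 at 19 DIV and a value of 2.73 (widened interval -0.04 to 5.49). Sparc, an abundant matrix glycoprotein, was at 0.31 and -0.21, with -0.52 (widened interval -0.94 to -0.10). That size was under the median absolute value of 0.60 for members with 5000 or more reads. Itgb1, the beta-1 integrin through which cells bind laminin, collagen and fibronectin, had 1046 CPM in control against 525 in ES at 11 DIV, and 682 against 1148 at 19 DIV, and its value was 1.75 (widened interval 0.49 to 3.01). Spp1, osteopontin, was at -0.48 and 1.47 with 1.96 (widened interval 0.66 to 3.26). Tgfbi, a TGF-beta-induced matrix protein, changed sides at -0.96 and 2.14 with 3.10 (widened interval 0.08 to 6.12), and Id3, a target of BMP and TGF-beta signalling, did so at -1.66 and 1.36 with an interval that included 0 (-0.82 to 6.87). They were the 2 of 6 YAP and TGF-beta members that changed sides (5.82% of all members). Of the other 4, Pmepa1, an inhibitor of TGF-beta signalling, was at 0.84 and 0.76 and the receptor kinase Axl at 0.08 and 0.43, both higher in ES on each day, and the Hippo pathway factors Tead1 and Wwtr1 were at -0.65 and 0.36 and at -0.59 and -0.07.

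Among cytoskeletal genes of non-neuronal cells, Myh9, the heavy chain of nonmuscle myosin IIA, had 681 CPM in control against 295 in ES at 11 DIV, and 314 against 819.6 at 19 DIV, with 2.59 (widened interval 0.91 to 4.27). Flna, an actin crosslinker, changed sides as well at -0.70 and 0.64. The 26 members of the contractile list had medians of -0.21 at 11 DIV and 0.18 at 19 DIV, with 5 higher (20.3% of all members), 0 lower (16.7%) and 21 under 2-fold, a share of higher members near that of all members. Vim, the intermediate filament vimentin, was at 0.59 and -0.01 with -0.60 (widened interval -1.15 to -0.04), on the other side from Myh9. The size of the Vim value was about the median absolute value of members with 5000 or more reads (0.60).

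Other genes lower at 11 DIV and higher at 19 DIV belonged to no single function. Cyb5r3, a reductase of cytochrome b5, had 1803 CPM in control against 885 in ES at 11 DIV, and 1215 against 2488 at 19 DIV, with 2.06 (widened interval 1.11 to 3.01). It was at 0.491 times control at 11 DIV (widened interval 0.275 to 0.844) and 2.05 times at 19 DIV (1.36 to 3.17). Apod, apolipoprotein D of Schwann cells and fibroblasts, had 1048 CPM in control against 528 in ES at 11 DIV, and 389 against 955 at 19 DIV, with 2.28 (widened interval 0.89 to 3.68). The RNA-binding protein Tsn had 3.14 (widened interval 1.01 to 5.27), the ribosomal protein Rpl22 1.42 (widened interval 0.36 to 2.48), the lysosomal protease Ctsb 1.80 (widened interval 0.28 to 3.32), and the chromatin protein Hmga2 2.50 (widened interval 0.13 to 4.86). Ctsb was at -0.58 at 11 DIV with total counts, just under 1.5-fold. Nap1l1, a histone chaperone, Man1a2, a Golgi mannosidase, Frmd8, a FERM domain protein, and Bnip2 had larger values of 3.67, 4.76, 3.02 and 3.12, with wide intervals whose lower ends were 0.64, 0.76, 0.54 and 0.48. In the opposite direction the kinase Irak1 (-4.46), the phospholipase Pla2g16 (-3.72), the coactivator Wbp2 (-3.12) and the nudix hydrolase Nudt3 (-2.38) also changed sides with an interval that excluded 0.

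Large housekeeping groups were counted in the same way. The 67 ribosomal protein members had medians of -0.41 at 11 DIV and -0.01 at 19 DIV, with 6 higher (20.3% of all members), 2 lower (16.7%) and 59 under 2-fold. Proteasome and ubiquitin genes had medians of -0.57 at 11 DIV and 0.16 at 19 DIV over 29 members, with 11 higher (20.3% of all members), 2 lower (16.7%) and 16 under 2-fold. The 44 respiratory chain and ATP synthase members went in both directions, with 7 higher (20.3% of all members), 13 lower (16.7%) and 24 under 2-fold: Ndufb9 of complex I was at 0.79 and -1.66 and Sdhb of complex II at -1.23 and 1.15. Glycolysis and hypoxia genes had medians of -0.04 at 11 DIV and -0.59 at 19 DIV over 12 members, with 0 higher (20.3% of all members), 5 lower (16.7%) and 7 under 2-fold. Immediate early genes, which follow neuronal activity, had medians of 0.11 at 11 DIV and -0.02 at 19 DIV over 11 members, with 4 higher (20.3% of all members), 3 lower (16.7%) and 4 under 2-fold. Bdnf, a neurotrophin gene driven by activity, was the member that changed sides downwards, with 398 reads in control against 1500 in ES at 11 DIV, and 1250 against 870 at 19 DIV. Fosl2, an AP-1 subunit, did so upwards, with 775 reads in control against 259 in ES at 11 DIV, and 1912 against 3658 at 19 DIV. Their differences of differences were -2.61 and 2.33, both with a widened interval that included 0, while Egr1, a zinc finger factor, was near control on both days at 0.11 and -0.04. Splicing factors (median difference of differences 0.14) and endoplasmic reticulum genes (0.13) were close to the median of all members.

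**Figure D3:**
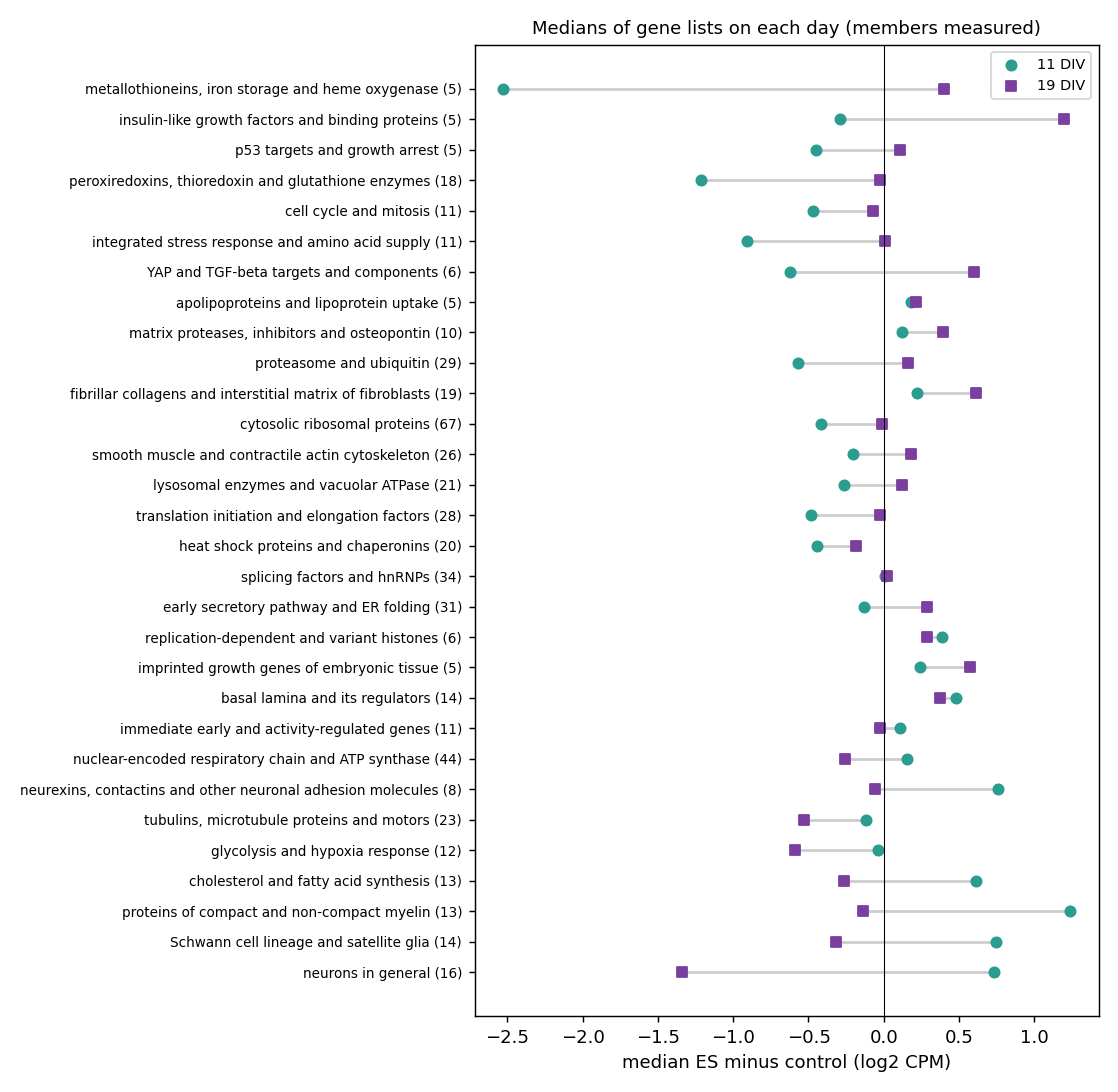
Medians of ES minus control in log2 CPM at 11 DIV (green circles) and 19 DIV (purple squares) for the lists with at least 5 members, ordered by the median difference of differences, with the number of members in brackets. General neuronal markers go from 0.73 to -1.34 and the metal and iron list from -2.53 to 0.40, the widest gaps in each direction.

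The difference of differences also equals the change from 11 to 19 DIV in ES less that in control, so each change of sides can be read along the days. Of the 79 genes lower at 11 and higher at 19 DIV, 42 moved by at least 1.5-fold in opposite directions in control and ES, 18 moved in control only, 17 in ES only, and 2 in neither pattern. Of the 77 genes with the opposite change the numbers were 38, 21, 16 and 2. The median change over days in the first group was -1.21 in control and 1.11 in ES, and in the second 1.01 in control and -1.12 in ES. These classes and medians use the same values that selected the genes, so movement in opposite directions was partly built in. They describe single genes and do not show which treatment carried the changes. Fth1 and Slc3a2 moved in control only, Prph and Rtn1 in ES only, and Tac1, Mapt, Gnao1, Apod and Myh9 in both.

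Markers of other cell types were scarce in every library, and no macrophage, endothelial, perineurial, muscle, red cell, epidermal or cartilage marker reached the limit for members. The 15 macrophage markers summed to 77.1 to 184.5 CPM and the 13 endothelial markers to 66.0 to 115.5. The 9 red cell markers summed to 50.6 CPM in control at 11 DIV, 0.506 in ES at 11 DIV and 0 at 19 DIV, where 3 reads of a gene are 0.435 CPM in control and 0.376 in ES. Of the 9 red cell markers 6 were at 0 in control at 11 DIV, 8 in ES at 11 DIV and 9 in each library at 19 DIV. The library with the most red cell reads was also the highest in metallothionein, and their part in the result was not tested. The 10 perineurial markers were at 188.6 to 222.3 CPM at 11 DIV, and at 358.9 CPM in control and 540.6 in ES at 19 DIV.

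Some values may mix 2 genes, because the use of strand in counting is not given in the sources used here. In the annotation Cnp overlaps Dnajc7, Igfbp7 overlaps Polr2b, Slc48a1 overlaps Hdac7, Ctsb overlaps Fdft1, Gng3 overlaps Bscl2 and Nab2 overlaps Stat6, each of which was counted in these libraries. At the limit of 1000 mean reads, Nab2 was just inside, with a difference of differences of -2.0, and Lig1 and Fst just outside, with 0.88 and -0.39.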

How the data were processed

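RNA of 4 pooled explant cultures was sequenced as QuantSeq libraries, which read the 3′ ends of transcripts, from 500 ng of total RNA per the labels' protocols. The authors deposited a table of unnormalized read counts by gene symbol for each library. Bowtie2, bedtools and mm10 are named in the submitters' processing notes, without versions. How duplicates and strand were handled is not given in the sources used here. All rows named a gene, and 5 members with a symbol on more than 1 row were counted but not named.

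Counts were scaled with TMM over all 23282 rows (edgeR 4.0.16 in R 4.3.3) to CPM, with a prior count of 2 on the log2 scale. Ratios within a day carry exact Clopper-Pearson intervals on counts divided by the spread factor. The difference of differences carries a 95% normal interval widened by the square root of that factor. With 0 residual degrees of freedom no quasi-likelihood test was run. The scripts were tested on simulated data. Alternatives were DESeq2 1.42.0 size factors, other scalings, prior counts, read minimums, folds and thinning. Intervals came from scipy 1.17.1, tables from pandas 2.3.3 and numpy 2.4.6, and figures from matplotlib 3.10.9, all under Python 3.11.15. Positions are from GENCODE on GRCm38, the assembly of mm10. Among members, 16 pairs of rows had counts within 5% of each other in every library.

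Named genes were the 15 per direction that changed sides with the nearer interval end furthest from 0, the 2 most abundant and up to 2 most different members of each list, 29 fixed genes and those at the read limit. Other list members were named after their values were seen. Members, the 40 lists and rules were chosen with earlier results of these data known. Some genes the rule names were left out for space, and some are not reported here.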

Additional observations from a re-analysis of the deposited data

Results flagged for a closer look

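The named genes below stood on opposite sides of control on the 2 days by at least 1.5-fold each and had a widened interval of the difference of differences that excluded 0. With 1 library per group the difference between the days was not tested in any of them. The interval was set from the same values and only ranks the genes. Values are differences of differences in log2 units.

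Among genes higher in ES at 11 DIV and lower at 19 DIV, those in the neuronal lists were Tac1 (-3.37), Prph (-2.25), Mapt (-2.84), Rtn1 (-3.15), Gng3 (-4.91) and Basp1 (-1.55). Those in the myelin and lipid synthesis lists were Cnp (-2.42), Cd9 (-2.31) and Scd2 (-1.36). The others were Gnao1 (-3.03), Sult4a1 (-5.08), Snhg11 (-5.90), Ngfrap1 (-2.84), Tppp3 (-3.20), Irak1 (-4.46), Pla2g16 (-3.72), Wbp2 (-3.12), Meg3 (-2.83) and Nudt3 (-2.38).

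Among genes lower in ES at 11 DIV and higher at 19 DIV, those that store iron or carry heme or amino acids were Fth1 (1.70), Slc48a1 (5.05) and Slc3a2 (2.70). Secreted, matrix and adhesion genes were Igfbp5 (2.09), Igfbp7 (2.06), Apod (2.28), Tgfbi (3.10) and Itgb1 (1.75), and Myh9 of the cytoskeleton was at 2.59. The others were Cyb5r3 (2.06), Tsn (3.14), Rpl22 (1.42), Frmd8 (3.02), Nap1l1 (3.67), Man1a2 (4.76), Bnip2 (3.12), Ctsb (1.80) and Hmga2 (2.50).

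Of the lists, the medians of general neuronal markers (-2.06) and of YAP and TGF-beta genes (0.76, 6 members) passed 1.5-fold on opposite sides on the 2 days. In the second list 2 of the 6 members did so, and its median at 11 DIV was -0.49 with total counts and -0.52 without Rn45s in the totals, under 1.5-fold.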

How the results depend on the processing

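With 1 library per group no library could be left out, since each is needed for the difference of differences. No paired analysis was possible because the groups held 1 library each. Under the 4 other scalings, 2 other prior counts and thinning to the smallest total, no named gene with a value of at least 2-fold changed sign, and 853 of 1029 values moved by less than their counting interval. Another scaling moves every gene by nearly the same small amount, so values past 2-fold could hardly change sign under it. The kept signs are therefore no check of these values. Scaling by total counts moved the median of all members by -0.14, and leaving Rn45s out of the totals by -0.11. With total counts 45.4% of values past 2-fold were higher, against 54.9% as reported. With total counts, 66 of the 79 genes lower at 11 and higher at 19 DIV passed again, and 77 of the 77 with the opposite change. List medians with total counts were -2.20 for neuronal, -1.07 for myelin, -1.20 for Schwann lineage, 2.79 for metal and iron, 0.78 for antioxidant, 0.71 for integrated stress, 0.42 for fibroblast matrix, 0.27 for contractile and 0.62 for YAP and TGF-beta genes. Without Rn45s in the totals they were -1.17 for Schwann lineage, 2.82 for metal and iron and 0.30 for contractile genes. The endoplasmic reticulum list (-0.012 with total counts) and the histone list (-0.001 with DESeq2 size factors, -0.113 with total counts, -0.084 without Rn45s and -0.15 with members of at least 500 reads) lay on the other side of 0, close to it. The read minimum set the counts. At least 2-fold higher and lower were 740 and 684 genes from 500 mean reads, 93 and 60 from 2000, and 4668 and 4677 with no minimum, and genes lower then higher and higher then lower were 249 and 250, 21 and 17, and 1409 and 1604. Asking 1.2-fold on each day gave 218 and 176 such genes, and 2-fold gave 29 and 21. Members of at least 500 reads gave medians of -0.66 for lipid synthesis, 2.47 for metal and iron, 1.21 for antioxidant, 0.66 for integrated stress and 0.94 for insulin-like growth factor genes. Members of at least 2000 reads gave -1.06 for myelin, 2.33 for metal and iron, 1.31 for antioxidant, 0.34 for fibroblast matrix, 0.53 for contractile and 0.43 for YAP and TGF-beta genes. Among members, scatter was widest for those with 1000 to 2000 reads (median absolute value 0.89).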
